A study of Mus musculus with 6 samples.

Results

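The genes described here are 10 genes of fat cell hormones and fat metabolism, Adipoq, Retn, Lep, Car3, Lipe, Pnpla2, Scd1, Thrsp, Fasn and Gpd1, followed in whole mouse uterus after progesterone. They are 10 of 8251 genes that the annotation gives as the only gene of a probe set, and were taken by name, as every probe set whose platform annotation gives 1 of these symbols as its only gene: 14 probe sets of 12422 that were not controls. Of these, 13 were above a floor of 6.60 (the 40th percentile of all log2 values) on at least 2 of 6 arrays and were analysed, among 7731 probe sets in all, and each of the 10 genes kept at least 1. The remaining Gpd1 probe set, 161753_f_at, lay between 5.64 and 6.31 on the 6 arrays. All mice were wildtype 129/SvImJ females, aged 10 to 16 weeks, whose ovaries had been removed 14 days before injection or, without one, before collection. At 6, 12, 15, 18 and 24 h, uteri came from mice given 0.2 mg progesterone subcutaneously in 0.1 mL sesame oil. The 0 h uteri came from mice that received no injection, so oil and handling differed from the progesterone groups as well. Each array held RNA pooled from 8 uterine horns of 4 mice, with 1 Affymetrix array per time and no replicates.

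White fat cells store triglyceride and release hormones that report on the body's energy stores. Stored fat is made from fatty acids that the cell takes up or synthesises, and it is released again by lipases. The uterus lies in the abdominal cavity beside fat pads of the mesometrium and the ovary, so an excised horn can carry fat tissue. The genes were therefore read with the question whether they moved together between the pools, as fat cells present in unequal amounts would make them. In RNA of a whole organ, fewer cells of a type and less RNA per cell cannot be told apart.

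Promoters of the 3 hormone genes are shown because Adipoq and Retn were lower on every progesterone array while Lep was not. Each sequence is from RefSeq, build GRCm38.p6, and runs 5′ to 3′ from 250 bases before the transcript start, which is base 251, to 50 bases from it onwards. Capitals mark matches, on either strand, to CCAAT, to TATAA, to the C/EBP palindrome TTGCGCAA, to the PPAR repeat AGGTCANAGGTCA or to the steroid receptor response element core AGAACA.
Adipoq, chr16:23146286-23146585, + strand: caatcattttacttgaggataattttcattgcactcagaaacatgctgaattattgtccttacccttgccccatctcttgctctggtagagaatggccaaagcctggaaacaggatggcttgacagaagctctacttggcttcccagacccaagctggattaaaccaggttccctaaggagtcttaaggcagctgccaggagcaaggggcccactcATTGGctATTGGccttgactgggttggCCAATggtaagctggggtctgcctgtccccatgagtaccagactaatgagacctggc
Retn, chr8:3655520-3655819, + strand: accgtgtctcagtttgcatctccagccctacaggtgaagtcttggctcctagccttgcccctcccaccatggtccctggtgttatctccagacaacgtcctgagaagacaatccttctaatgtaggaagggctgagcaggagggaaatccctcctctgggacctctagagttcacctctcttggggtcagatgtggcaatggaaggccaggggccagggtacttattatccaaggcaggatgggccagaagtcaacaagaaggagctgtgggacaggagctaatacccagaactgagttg
Lep, chr6:29059971-29060270, + strand: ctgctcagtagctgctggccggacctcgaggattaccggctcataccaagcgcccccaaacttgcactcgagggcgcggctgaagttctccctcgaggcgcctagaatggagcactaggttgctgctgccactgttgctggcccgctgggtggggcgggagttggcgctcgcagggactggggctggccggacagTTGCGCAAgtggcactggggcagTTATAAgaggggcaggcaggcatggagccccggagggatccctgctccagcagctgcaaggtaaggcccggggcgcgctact
The Adipoq promoter held 3 matches to CCAAT, at bases 217, 224 and 244, a motif found in 37.4% of 32851 promoters of the same length. In the Lep promoter the palindrome TTGCGCAA stood at base 196, a motif of 0.183% of promoters, and overlapping matches to TATAA on both strands began at bases 219 and 220, a motif of 24.9%. No searched motif was in the Retn window, and AGAACA and AGGTCANAGGTCA, held by 19.0% and 0.0396% of promoters, were in none of the 3. RefSeq promoters were matched for 7 of the 10 genes, and those of Car3, Scd1 and Gpd1 were not among them.

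Levels are given as deposited, on the log2 scale, and each difference is a progesterone level minus the level on the single 0 h array. The median of all probe sets lay between 7.12 and 7.22 on the progesterone arrays and at 7.19 on the 0 h array. All arrays shared a lower limit of 5.39. The 6 arrays limit the precision of every value, and a single time has no replicate check. A test of the 5 progesterone arrays against the 0 h array, and one of a linear trend over hours, used limma with the spread between times as the error. In these, "rose" and "fell" mean an adjusted p under 0.05 over all analysed probe sets.

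Adipoq encodes adiponectin, a hormone secreted by fat cells that raises insulin sensitivity. On its probe set, 99104_at, the log2 values were 9.41, 8.38, 8.45, 6.89, 7.70 and 7.22 at 0, 6, 12, 15, 18 and 24 h. The 0 h array was highest, the arrays of 6 and 12 h lay close together, and the 15 h array was lowest, below both its neighbours in time. Against 0 h, the level on the linear scale was 48.9%, 51.4%, 17.4%, 30.5% and 21.9% at the successive progesterone times. The 5 progesterone arrays averaged 7.73 ± 0.69 (SD), against 9.41 at 0 h. The difference of -1.68 ± 0.55 (SE) did not pass (limma, adjusted p = 0.15), since the progesterone arrays differed among themselves by up to 1.57.

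Retn encodes resistin, a hormone of fat cells in the mouse. Its probe set, 102366_at, had 9.38, 8.67, 8.78, 8.39, 8.75 and 8.52 from 0 to 24 h. It was highest at 0 h and lowest at 15 h, as Adipoq was, but over a range of 0.99 where that of Adipoq was 2.53. Its level stood between 50.4% and 66.1% of that at 0 h on the 5 progesterone arrays. The mean difference was -0.76 ± 0.17 (SE, limma adjusted p = 0.065).

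Lep encodes leptin, the fat cell hormone that signals fat stores to the brain. Its 2 probe sets did not share the pattern. Probe set 98444_g_at had 9.02, 8.81, 8.98, 8.83, 8.93 and 9.04 from 0 to 24 h, with the highest value at 24 h. The second, 98443_at, had 8.62, 8.27, 8.64, 8.64, 8.61 and 8.61, with only the 6 h array apart. Mean differences from 0 h were -0.10 ± 0.14 and -0.07 ± 0.17 (SE, limma adjusted p = 0.75 and 0.86), and at 15 h, where Adipoq was lowest, they were -0.20 and 0.01.

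Car3 encodes carbonic anhydrase 3, a cytosolic enzyme abundant in fat cells and in skeletal muscle. Its probe set, 160375_at, had 11.10, 10.24, 10.28, 8.71, 9.75 and 9.14 from 0 to 24 h. The order of the 6 arrays was that of Adipoq, with 0 h highest, 12 h just above 6 h, then 18 h, 24 h and 15 h. Its level stood at 55.2%, 56.6%, 19.1%, 39.3% and 25.8% of that at 0 h, within 0.14 to 0.37 of the differences of Adipoq on the log2 scale at each time. The mean difference of -1.47 ± 0.54 (SE) did not pass (limma, adjusted p = 0.2).

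Lipe and Pnpla2 encode hormone-sensitive lipase and adipose triglyceride lipase, which release fatty acids from stored fat. For Lipe, 103083_at, the values were 8.18, 7.63, 7.55, 6.82, 7.33 and 7.31 from 0 to 24 h. Here too the 15 h array was lowest, at 38.8% of the level at 0 h, and the arrays of 18 and 24 h were close together. The mean difference was -0.86 ± 0.27 (SE, limma adjusted p = 0.14). For Pnpla2, 96348_at, they were 9.10, 8.42, 8.39, 8.19, 8.31 and 8.30. The 5 progesterone arrays lay together, at 53.2% to 62.4% of the level at 0 h, with 15 h again lowest. Pnpla2 fell by 0.78 ± 0.14 (SE, limma adjusted p = 0.031). Without the 12, 15, 18 or 24 h array its adjusted p was 0.11, 0.087, 0.091 and 0.067, with differences of -0.80 to -0.74, so the call rested on having all of these arrays, while without 6 h it was 0.021.

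**Figure D1:**
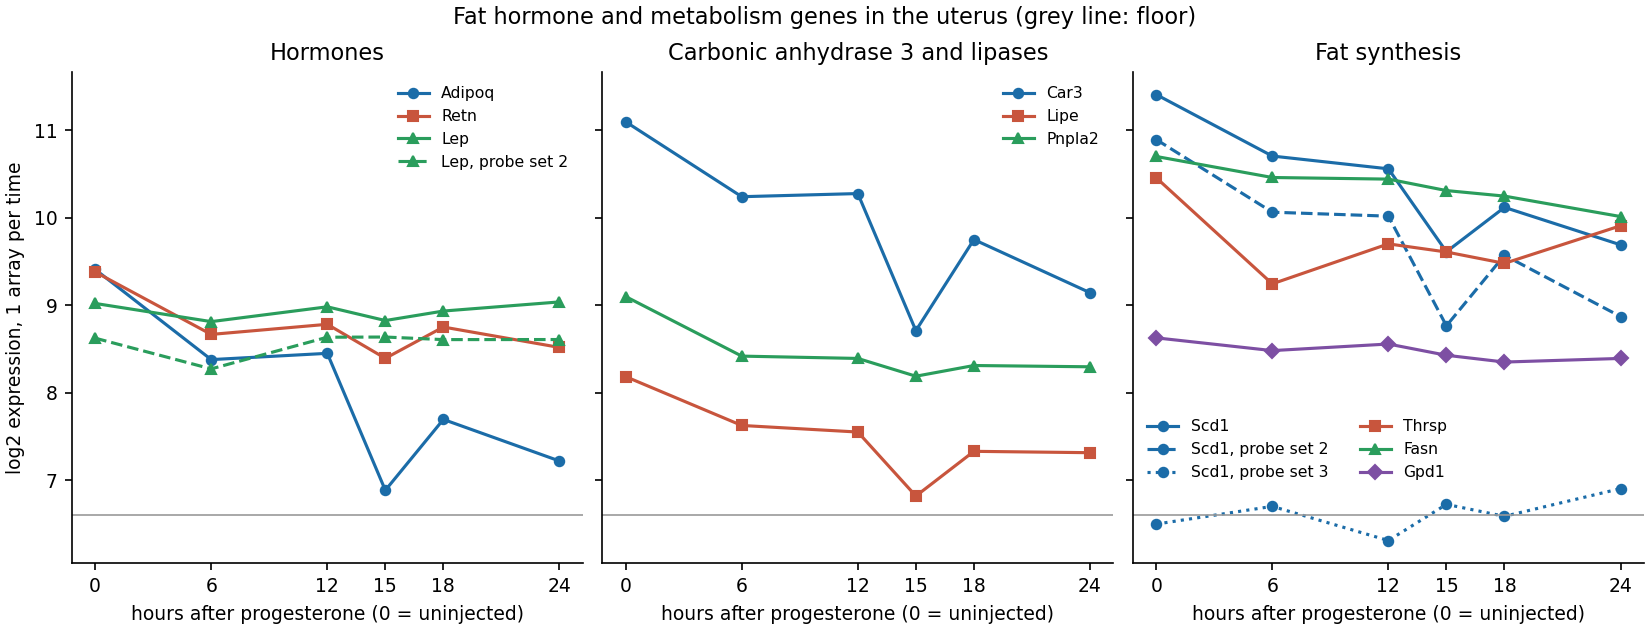
Log2 expression of the 13 analysed probe sets (vertical axis) against hours after progesterone (horizontal axis, 0 = uninjected), 1 point per array, with the floor of 6.60 as a grey line. Adipoq, Car3, Lipe and 2 probe sets of Scd1 dip at 15 h and are higher again at 18 h, while Lep stays between 8.27 and 9.04.

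Scd1 encodes a stearoyl-CoA desaturase, which puts a double bond into newly made fatty acids and is a main form of the enzyme in mouse fat and liver. Probe set 94056_at had 11.41, 10.71, 10.56, 9.61, 10.12 and 9.69 from 0 to 24 h. Probe set 94057_g_at, drawn from the same sequence record, had 10.90, 10.06, 10.02, 8.77, 9.57 and 8.87. Both were highest at 0 h and lowest at 15 h, at 28.8% and 22.8% of the level at 0 h. Mean differences were -1.27 ± 0.40 and -1.44 ± 0.49 (SE, limma adjusted p = 0.13 and 0.16). The third probe set, 94058_r_at, lay between 6.31 and 6.90, near the floor, and went with neither. Scd2, a closely related desaturase, had 11.56 to 11.68 on the progesterone arrays of its probe set 95758_at, against 11.66 at 0 h.

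Thrsp encodes the thyroid hormone responsive protein Spot 14, a regulator of fatty acid synthesis. On 160306_at it had 10.46, 9.25, 9.70, 9.61, 9.48 and 9.91 from 0 to 24 h, lowest at 6 h and not at 15 h. At 24 h its level was 68.3% of that at 0 h, where Adipoq stood at 21.9%. The mean difference was -0.87 ± 0.22 (SE, limma adjusted p = 0.085). Fasn encodes fatty acid synthase, and its values on 98575_at were 10.70, 10.46, 10.44, 10.31, 10.25 and 10.01. They went down in small steps without a dip at 15 h, to 62.1% of the level at 0 h by 24 h. The trend of Fasn was -0.63 ± 0.13 per 24 h (SE, limma adjusted p = 0.087). Gpd1 encodes the glycerol-3-phosphate dehydrogenase that supplies the backbone of triglyceride. On 92592_at it had 8.63, 8.48, 8.56, 8.43, 8.35 and 8.39, with differences of -0.28 to -0.07 from 0 h and an adjusted p of 0.52 (limma).

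Of the 13 analysed probe sets, 1 fell and 0 rose on the progesterone arrays as a group (limma, adjusted p under 0.05; Pnpla2). An unadjusted p under 0.05 was reached by 9 of the 13 (5 with no filter on low values) and by 19.0% of all probe sets. Over all 7724 probe sets tested 2.69% passed, with 1.8% that fell and 0.893% that rose. In the trend over hours 0 of the 13 passed with limma, where 0.31% of all did (0.116% fell). An unadjusted p under 0.05 was reached by 8 of the 13 (5 without the 0 h array) and by 16.2% of all. The steepest trends were those of Adipoq at -2.20 ± 0.50, Scd1 at -1.96 ± 0.41 and -1.72 ± 0.32, and Car3 at -1.95 ± 0.51 per 24 h (SE, adjusted p = 0.1, 0.087, 0.081 and 0.13). Within the 5 progesterone arrays alone the trend of Adipoq had an adjusted p of 0.19. All 5 progesterone arrays were below 0 h for 10 of the 13 probe sets, of 9 genes, which 27.2% of all probe sets also were. The spread between times enters these tests as error, so a dip at 1 time widens it.

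Counted by size, Adipoq and Thrsp were at least 2-fold lower than 0 h at 6 h (1.1% of all probe sets at that time), and none of the 13 was at 12 h (1.75%). At 15 h there were 5 of 13, those of Adipoq, Car3, Lipe and 2 of Scd1 (1.58%). At 18 h there were 4 (1.8%) and at 24 h 4 (1.39%), those of Adipoq, Car3 and the same 2 of Scd1 at both times. None was 2-fold higher at any of the 5 times, where 1.41%, 1.83%, 2.05%, 1.14% and 1.06% of all probe sets were. The median difference of the 13 was -0.68, -0.63, -0.91, -0.79 and -0.80 at 6, 12, 15, 18 and 24 h, beside medians of all probe sets between -0.05 and 0.03. All of these differences share the single 0 h array.

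**Figure D2:**
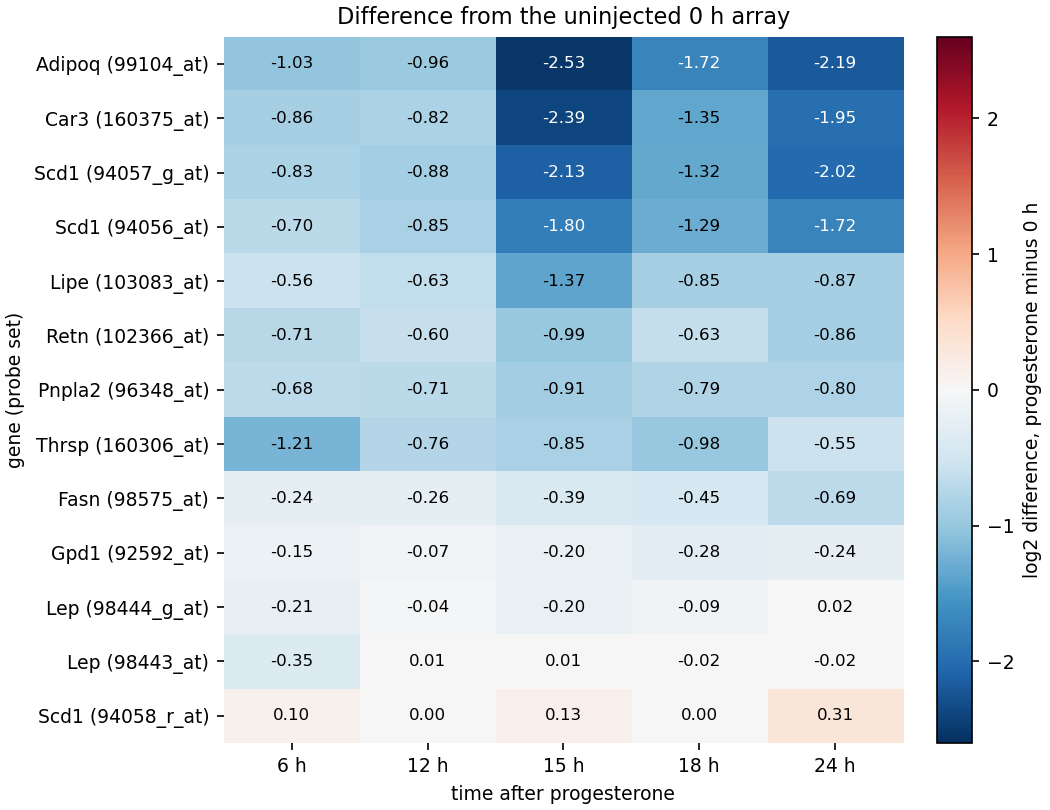
Log2 difference of each progesterone array from the 0 h array (columns, by time) for the 13 analysed probe sets (rows, ordered by the difference at 15 h), with blue for lower and red for higher than 0 h. The lowest values, -2.53 for Adipoq and -2.39 for Car3, are at 15 h, and Lep, Gpd1 and the third Scd1 probe set are near 0.

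Movement between neighbouring times does not use the 0 h array after the first step, and it split the genes. Between 12 and 15 h the change was -1.57 for both Adipoq and Car3, -1.25 and -0.95 for 94057_g_at and 94056_at of Scd1, -0.73 for Lipe, -0.39 for Retn and -0.20 for Pnpla2. Over all analysed probe sets that step had a median of 0.02 and an SD of 0.19. Of the 13 probe sets 11 were lower at 15 than at 12 h, where 44.6% of all were. Between 15 and 18 h the direction turned, with 0.81 for Adipoq, 1.04 for Car3, 0.81 and 0.51 for the same Scd1 probe sets, 0.51 for Lipe and 0.36 for Retn, and 5 of the 13 were lower, where 68.4% of all were. Between 18 and 24 h Adipoq, Car3 and Scd1 went down again, by -0.48, -0.61 and, for Scd1, -0.70 and -0.43, while Lipe and Pnpla2 moved by -0.02 and -0.01. In that step 8 of 13 were lower, where 38.6% of all were. From 6 to 12 h the counts were 6 of 13 and 34.7%, and from 0 to 6 h 12 of 13 and 59.3%.

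The arrays had 0 h highest and 15 h lowest in 7 of the 13 probe sets, those of Adipoq, Car3, Lipe, Pnpla2, Retn and 2 of Scd1, a pattern of 3.77% of all analysed probe sets. With 15 h lowest alone asked for, the count was the same 7, and 8.28% of all. Apart from Retn, these 6 also had the full order of 0 h, then 6 and 12 h, then 18 h, 24 h and 15 h, which 0.365% of all had. In Lipe and Pnpla2 the order of 18 over 24 h rested on changes of only -0.02 and -0.01. The SD of that step over all analysed probe sets was 0.20. Without the 0 h array, a comparison added after the results were seen, 15 h was the lowest of the 5 progesterone arrays for the same 7 probe sets and for 9.07% of all. The order of 6 and 12 h over 18, 24 and 15 h then held for the same 6, and for 1.11% of all. The low point at 15 h is that of 1 pool on 1 array. Without that array Adipoq differed from 0 h by -1.47 ± 0.47 and Car3 by -1.24 ± 0.42 (SE, limma adjusted p = 0.21 and 0.24). The genes were listed with earlier results of these arrays known, so these counts describe them and test nothing. Both Scd1 probe sets come from 1 gene and are not separate cases. Fasn, Thrsp, Gpd1 and Lep did not have this order.

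**Figure D3:**
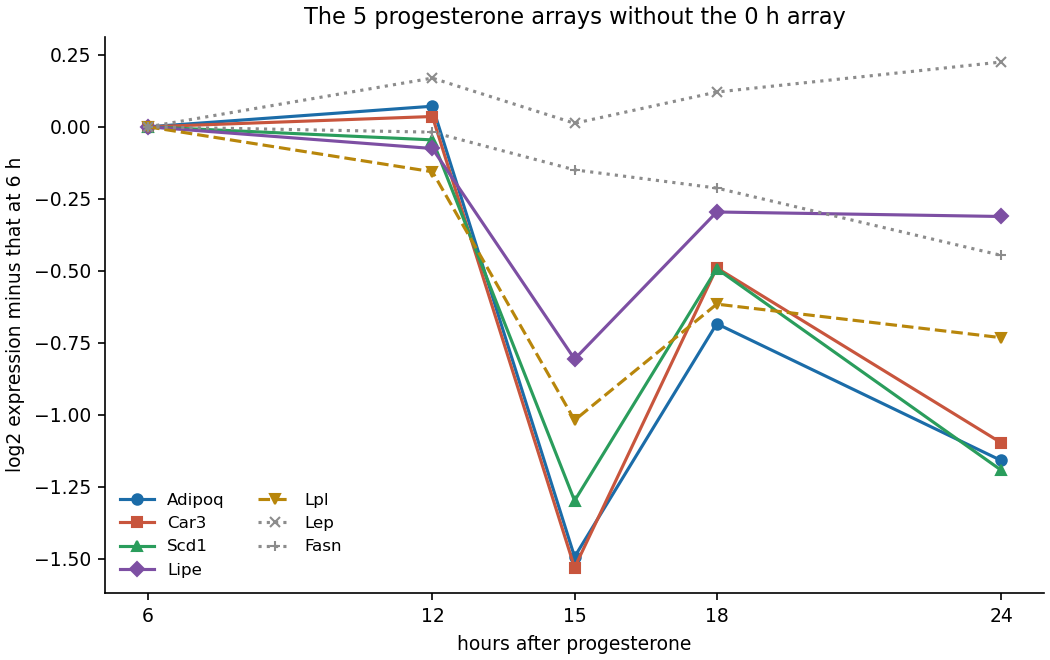
Log2 expression minus that at 6 h (vertical axis) on the 5 progesterone arrays (horizontal axis, hours after progesterone) for Adipoq, Car3, Scd1 (94057_g_at), Lipe and Lpl (95611_at), with Lep (98444_g_at) and Fasn in grey, 1 point per array. Adipoq and Car3 nearly overlie each other down to 15 h with Scd1 close to them, Lipe and Lpl make a smaller dip, and Lep and Fasn make none of that size.

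Likeness to Adipoq was measured as the root mean square distance between profiles over the 6 arrays, each centred on its own mean, in log2 units. Of 7671 other probe sets Car3 was the nearest, at 0.112, followed by 94057_g_at of Scd1 at 0.147, while 94056_at of Scd1 was rank 4 at 0.239. Lipe was rank 14 at 0.466, Retn rank 69 at 0.572 and Pnpla2 rank 106 at 0.599. The others were far down, with Fasn at rank 286, Thrsp at 873, Gpd1 at 1139, the Lep probe sets at 2549 and 4452, and the third Scd1 probe set, 94058_r_at, at 5517. The measure asks for a like size of change as well as a like order, and Lipe, Retn and Pnpla2 moved over smaller ranges than Adipoq. Retn differed in order too, with 18 h above 6 h. Among other named genes the 5 nearest probe sets were those of Abca1, a cholesterol exporter, at 0.341, Gm4788 at 0.398, Igfbp3, a binding protein of insulin-like growth factors, at 0.414, the kallikrein Klk1b1 at 0.430 and Aldh1a1, which makes retinoic acid, at 0.443. Abca1 had 8.91, 8.11, 7.60, 6.73, 7.20 and 7.47 from 0 to 24 h, so it shared the low point at 15 h. Igfbp3 did too, with 8.30 at 15 h, against 10.59 at 0 h, but its later arrays stayed within 0.26 of that value. Aldh1a1 went down at every step, to 7.71 at 24 h.

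Other fat cell genes gave a mixed picture. The list held 20, of which 15 were on the array and 8 were analysed. For 0 of the 7 with a value on every array was 0 h highest and 15 h lowest, a pattern of 3.77% of all analysed probe sets. At each of the 5 times 0 of them were 2-fold lower than 0 h, where 1.1% to 1.8% of all were. Lpl, the lipase that takes up fat from blood lipoproteins, had 8.37, 8.21, 7.35, 7.75 and 7.63 at 6, 12, 15, 18 and 24 h on 95611_at. It had the order of 6 and 12 h over 18, 24 and 15 h on the progesterone arrays, as 1.11% of all did. Its 6 h array stood above 12 h, as for Lipe, Pnpla2 and Scd1 and unlike Adipoq. The 0 h value was missing. Its second probe set, 160083_at, had 6.85 at 0 h, 6.08 and 5.79 at 6 and 12 h and 5.39 to 5.53 later, mostly below the floor. Pck1, the enzyme of glyceride glycerol synthesis in fat, had 7.16, 7.01, 7.53, 5.63, 6.53 and 5.62, so it was low at 15 and 24 h with a partial return at 18 h. Rarres2, the fat cell chemoattractant chemerin, differed from 0 h by -0.56 ± 0.15 and Apoc1, an apolipoprotein, by -0.53 ± 0.15 (SE, limma adjusted p = 0.093 and 0.1), and both had their lowest array at 6 or 12 h. Mrap, Slc2a4 and Rbp4 differed by -0.06, -0.05 and -0.04.

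Several defining genes of fat cells gave little signal on any array. Fabp4, the fatty acid binding protein of fat cells, lay between 5.60 and 5.93 on all 6, below the floor. Cd36 and Pparg were at the lower limit on every probe set and array, and Cidec, a lipid droplet protein, was at the limit on all 5 progesterone arrays, against 5.74 at 0 h. Plin4 and Aqp7 were below the floor throughout, as was Orm1, which stood at 5.39 at 15 and 24 h, against 6.57 at 0 h. How far these probe sets can detect their genes was not tested. Cebpa, a transcription factor of fat cells and other tissues, differed from 0 h by a mean of -0.17. It had 9.63, 9.69, 9.50, 9.30, 9.41 and 9.40 from 0 to 24 h, highest at 6 h and lowest at 15 h. Its progesterone arrays had the order of 6 and 12 h over 18, 24 and 15 h, as 1.11% of all did, with 18 and 24 h close together. The summed linear level of the 7 other fat cell genes with a value on every array was 3197 to 3551 on the progesterone arrays and 4522 at 0 h. At 15 h that sum was 3534, near the top of its range. Its largest part was Rarres2, which had 11.47 at 0 h and 11.06 at 15 h. The 10 genes described summed to 4912 to 7174 on the progesterone arrays and 11089 at 0 h, with the lowest sum at 15 h. Of the brown fat genes Ucp1, Cidea, Ppargc1a, Elovl3 and Cox7a1 were below the floor, and the 2 analysed, Cox8b and Dio2, differed from 0 h by -0.29 ± 0.10 and -0.28 ± 0.24 (SE, limma adjusted p = 0.18 and 0.59).

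Of 20 other genes of fat synthesis 13 were on the array and 12 were analysed, and 1 passed the test against 0 h, where 2.69% of all did. Lpin1, a phosphatidate phosphatase of triglyceride synthesis, fell by 0.57 ± 0.09 (SE, limma adjusted p = 0.027), with its values at 15, 18 and 24 h set to the floor. With no floor the difference was -0.80 and the adjusted p 0.14, and without the 12, 15, 18 or 24 h array in turn the adjusted p was 0.057, 0.082, 0.069 and 0.052. Gpam, the initial acyltransferase of glycerolipid synthesis, differed by -0.65 ± 0.17 (SE, adjusted p = 0.093) and was lowest at 18 h. Acly, which supplies acetyl-CoA for fat synthesis, differed by -0.35 ± 0.18 (SE, limma adjusted p = 0.34). Its differences lay between -0.57 at 6 h and -0.07 at 15 h, where it had 10.45, against 10.52 at 0 h. Srebf1, the transcription factor of lipid synthesis genes, stood at 9.61 at 15 h, its highest array, against 9.24 at 0 h. Fads1, a desaturase of polyunsaturated fatty acids, and Elovl5, an elongase of them, had mean differences of 0.54 ± 0.27 and 0.13 ± 0.26 (SE, adjusted p = 0.34 and 0.84). For 0 of the 12 genes was 0 h highest and 15 h lowest, a pattern of 3.77% of all analysed probe sets.

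Of 20 other genes of fat release and fatty acid oxidation 15 were on the array and 13 were analysed, and none passed either test. For 0 of the 13 was 0 h highest and 15 h lowest, where 3.77% of all analysed probe sets had this pattern. Mgll, the monoglyceride lipase that completes triglyceride breakdown, went down step by step on 97511_at, from -0.24 at 6 h to -0.87 at 24 h (limma, adjusted p = 0.062 for the trend), while its second probe set differed by a mean of -0.15. Plin2, a lipid droplet coat protein of many cell types, and Acadm, an enzyme of fatty acid oxidation, differed by -0.47 ± 0.14 and -0.37 ± 0.16 (SE, adjusted p = 0.11 and 0.26). Acadl and Etfdh, both of mitochondrial oxidation, differed by 0.03 and 0.24. Angptl4, a secreted inhibitor of Lpl, was higher by 1.03 at 6 h and by 0.25 at 24 h on 96119_s_at (mean 0.68 ± 0.25, adjusted p = 0.2), by a mean of 0.82 on 102114_f_at, and lower by a mean of -0.46 on 96118_at. Over these 3 further lists 1 of 32 genes tested against 0 h passed with limma, Lpin1, where 2.69% of all did. An unadjusted p under 0.05 was reached by 8 of the 32, where 19.0% of all did. In the trend 0 of 33 passed, where 0.31% of all did, and 5 had an unadjusted p under 0.05, where 16.2% of all did. That count of 5 was 10 without the 0 h array and 9 with no filter.

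Markers of tissues that a dissected uterine horn can carry were set beside the fat genes, 8 lists in all. The epithelium list was lower on the same arrays as a median, with values over 11 genes between -0.54 and -0.43 at the 5 times and a summed linear level of 7709 to 9068 on the progesterone arrays, against 11014 at 0 h. In that list Krt18, Epcam and Ltf fell against 0 h and Krt7 fell over hours (limma, adjusted p = 0.024, 0.01, 0.035 and 0.046). In the same list Cldn3 was higher than 0 h at all 5 times, by 0.26 to 0.56 (mean 0.43 ± 0.13, SE, adjusted p = 0.13), and Cldn4 by a mean of 0.13. Endothelium medians lay between -0.24 and 0.02, with Cldn5 the 1 gene that fell (adjusted p = 0.01), and macrophage medians between -0.30 and 0.07. Stroma medians lay between -0.02 and 0.45, where Col1a1 and Col3a1 rose over hours (limma, adjusted p = 0.019 and 0.048). Hoxa10 and Hand2 of that list were above 0 h at all 5 times, with differences of 0.44 to 0.83 and 0.27 to 0.51. Thy1 and Dcn were below 0 h at all 5 times, with differences of -0.82 to -0.28 and -0.40 to -0.02. Lum differed by -1.22 at 6 h and by 0.22 at 24 h. Smooth muscle medians lay between -0.17 and 0.52. Red blood cell medians were highest at 15 h, at 0.32, and lowest at 18 h, at -0.30. Skeletal muscle medians, of tissue that also makes Car3, lay between -0.08 and 0.24, where Tnni2 rose over hours (adjusted p = 0.046). The 2 mesothelium genes analysed had medians between -0.49 and -0.10. Over the 8 lists 0 h was highest and 15 h lowest for 1 skeletal muscle gene and 1 stroma gene, and for 0 genes of the other lists. These were Myh4 (7.68 at 15 h, against 8.09 at 0 h, on 161545_r_at) and Dcn (12.22 at 15 h, against 12.62 at 0 h). Of all analysed probe sets 3.77% had this pattern. The second Myh4 probe set, 98488_at, was at the lower limit of 5.39 on all 6 arrays. Dcn also had the full order of 0 h, then 6 and 12 h, then 18 h, 24 h and 15 h, which 0.365% of all had. The adjusted p was above 0.05 for Krt18 and Ltf without the 12, 15, 18 or 24 h array (highest 0.097 and 0.12), for Cldn5 without 12 h (0.057), and for Col1a1 without 6, 12, 15 or 18 h (highest 0.13). It was also above 0.05 for Krt7 and Col3a1 with any 1 array other than 24 h left out (highest 0.19 and 0.2), and for Tnni2 with any 1 progesterone array left out (highest 0.21). With no filter on low values it was 0.063 for Krt18 and 0.15 to 0.29 for Ltf, Krt7, Col1a1, Col3a1 and Tnni2. The part of any of these tissues in the fat gene values was not tested.

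**Figure D4:**
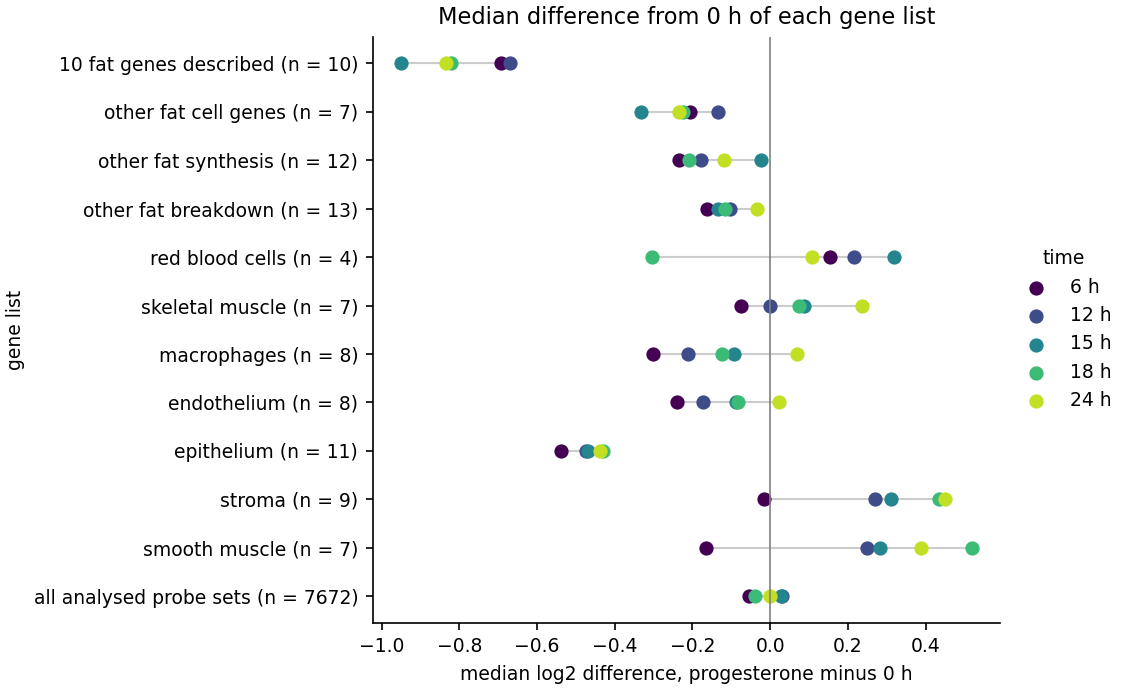
Median log2 difference from 0 h (horizontal axis) of each gene list (rows, with the number of genes that had a value on every array), 1 point per progesterone time. The 10 genes described have medians of -0.95 to -0.67, below those of the other fat lists, which lie between -0.33 and -0.02, and the lists of 2 genes are left out.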

How the data were processed

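RNA of whole uterus was hybridised to 6 Affymetrix arrays. The authors deposited log2 expression per probe set (software, background correction and scaling: not given in the sources used here). The log base was read from the values: 2 raised to a value gave whole units of the 4th decimal, within 0.05 of a unit, for 99.76% of linear values under 2000, against 6.418% for the natural base. Of 12487 probe sets 65 controls were left out, and 121 missing values stayed missing. Values below the 40th percentile (6.60) were set to it, and probe sets above it on at least 2 arrays were analysed. A difference from a floored value is a limit, and equal floored values can make a p too small. Symbols came from the platform annotation.

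limma 3.58.1 (R 4.3.3; lmFit, eBayes with an intensity trend; checked on simulated arrays) compared the 5 progesterone arrays with 0 h, and fitted hours as a number, with 4 residual degrees of freedom and Benjamini-Hochberg adjustment over all probe sets tested. With 1 array a time, the fit takes the 0 h value to vary as much as the progesterone values do, and each p measures spread between times. Lists used the probe set with the highest mean per gene. Named were all probe sets of the 10 genes, and of the other fat lists genes that passed and the 3 highest and lowest mean differences. Lpl, Cebpa, Scd2, Cldn3, Cldn4, Myh4, Dcn, Thy1, Lum, Hoxa10, Hand2, the genes below the floor and second probe sets were named after their values were seen. The genes and lists were chosen with earlier results of these data known. Alternatives were other floors, no filter, median centring, quantile normalization, no intensity trend and each array left out.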

Additional observations from a re-analysis of the deposited data

Results flagged for a closer look

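For Lep on probe set 98443_at, the 6 h array stood apart from the other progesterone arrays, at 8.27 where the other 4 lay between 8.61 and 8.64. Its gap was 0.919 of the range of the 5, above Dixon's critical value of 0.71. The 13 analysed probe sets were checked in this way, chance alone marks about 1 in 20, and the 5 arrays are different times and not replicates of 1 condition.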

How the results depend on the processing

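Each array was a time of its own, and no single time had a second. No paired analysis was possible because each group had 1 array. The count of 1 probe set that fell, Pnpla2, held under all 7 other settings of floor, filter, scaling and test, and was 0 to 1 with a progesterone array left out. In the trend over hours the count of 0 held in all 13 alternatives. For the 3 other fat lists the count of 1 against 0 h was 0 without a floor and with one at the 20th or 60th percentile, 2 with quantile normalization, and 0 to 4 with an array left out. Their trend count of 0 was 1 with no floor. At 6 h, 2 probe sets were 2-fold lower, and 1 with median centring or quantile normalization. The count with 0 h highest and 15 h lowest was 6 of 11 analysed with a floor at the 60th percentile and 8 with quantile normalization, where it was 7 otherwise. Trends that did not pass changed sign with 1 array left out: over these fits Thrsp lay between -0.92 and 0.71 per 24 h (0.71 without 0 h, -0.36 with all), Lep between -0.094 and 0.25 on 98444_g_at (-0.027 without 6 h, -0.094 without 24 h, 0.039 with all) and between -0.018 and 0.39 on 98443_at (-0.018 without 6 h, 0.13 with all). With the floor at the 60th percentile (7.70), Adipoq at 15, 18 and 24 h has only a limit. The cause of these changes was not tested.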

Other observations

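Some genes not named above are given here, and were picked after their values were seen. Cyp2e1, a cytochrome P450 of liver and fat, had 10.07, 9.69, 10.17, 8.82, 9.67 and 8.83 from 0 to 24 h on 93996_at. It was low on the same arrays as Pck1 and, like it, highest at 12 h. Me1, the malic enzyme that supplies NADPH for fat synthesis, had 6.00 to 6.11 on the 5 progesterone arrays of 101082_at, against 7.08 at 0 h. Me1 belongs to the list of other fat synthesis genes, but was above the floor on the 0 h array alone and was not analysed.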
